A study of Mus musculus with 8 samples.

Results

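The genes described here are those of the ubiquitin ligase families RNF, TRIM, KLHL, FBXL, FBXO, FBXW and HECT, with NEDD4, NEDD4L and HUWE1, in cultured adult mouse cardiomyocytes in which Hoxa5 was targeted. They were chosen by symbol and by depth: of 280 rows whose symbol begins with one of these family names and a digit (or with HECT or NEDD4, or is HUWE1), 73 had a sum of at least 40 counts over the 8 libraries, out of 33514 rows in all. Only this sum chose them, not the difference between groups. Membership rests on the name, and the enzymatic activity of each protein was not measured. Of the other matching rows, 61 had fewer than 40 counts and 146 had none. Those at 0 include rows not named as single coding genes, such as FBXL19-AS1, FBXO3-DT and TRIM6-TRIM34. They are not a count of silent ligase genes. The members nearest the limit were TRIM23 with 44, RNF220 with 50 and RNF150 with 53 counts, and the nearest rows outside it were FBXW5 with 38, KLHL15 with 37 and FBXO40 with 27.

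Cells of C57BL/6 mice were plated and transfected with a control siRNA (siN, 4 libraries) or an siRNA against Hoxa5, a homeobox transcription factor (siHoxa5, 4 libraries). Phenylephrine, an agonist of alpha1-adrenergic receptors used to induce hypertrophic growth, was added to both groups 24 h later at 100 µM for 24 h, and no library lacks it. The comparison made was siHoxa5 against siN, by the labels of the libraries. The labels give no age of the mice and do not state if each repeat is its own animal or culture, and p-values reflect only how these libraries vary, which may be technical.

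Ubiquitin is attached to proteins by a chain of enzymes: E1 activates it, E2 carries it, and an E3 ligase picks the substrate. RING ligases, among them many RNF and TRIM proteins, bring a loaded E2 next to the substrate, while HECT ligases first take ubiquitin onto a cysteine of their own. KLHL and F-box proteins carry no ligase domain and instead deliver substrates to the cullin-RING complexes, KLHL proteins to CUL3 through their BTB domain and F-box proteins to CUL1 through SKP1. In heart and skeletal muscle, ligases of these families turn over sarcomere proteins, and several mark atrophy.

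Library totals ranged from 635824 to 658192 counts in siN and from 560190 to 619942 in siHoxa5, with human-style symbols for the mouse genes. The target itself, HOXA5, had 2, 0, 3 and 3 counts in siN libraries 1 to 4 and 1, 3, 4 and 1 in siHoxa5, a ratio of summed rates of 1.24 (exact 95% interval 0.426 to 3.70; exact two-sided permutation test of CPM, p = 0.657, n = 4 and 4). A lower level was not detectable at this depth, so every direction given refers to the libraries by their labels. On the first principal component (25.8% of the variance) all siN libraries (-7.77 to -6.30) lay apart from all siHoxa5 libraries (2.74 to 10.95). Within siHoxa5, libraries 2 and 4 lay farther from siN (10.77 and 10.95) than libraries 1 and 3 (2.74 and 4.69). On the second component siHoxa5 libraries 2 and 4 lay at opposite ends (8.30 and -13.41), so they were not alike in every respect. Cardiomyocyte markers (10 of 12 with counts, PLN and MB at 0) made up 5.39 to 5.73% of counts in siN and 6.80 to 7.01% in siHoxa5, and fibroblast markers (7 of 12 with counts, LUM, PDGFRB, TCF21, DPT and LOX at 0) 1.02 to 1.09% and 1.07 to 1.27%. Markers of endothelial cells, smooth muscle, leukocytes, mesothelium, nerve, fat and red blood cells each held no more than 0.00601% in every library. In bulk RNA, fewer cells of a type and less RNA per cell cannot be told apart.

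Most of the ligase families did not move past the threshold, and 3 genes did. RNF149, a RING ligase anchored in membranes, fell in the siHoxa5 libraries, while KLHL41, a kelch protein of the muscle sarcomere, and KLHL21, a CUL3 adaptor known from cell division, rose. Of the 73 genes, 62 passed the filter on low counts, and 3 of those 62 (4.84%), 2 higher and 1 lower, had an adjusted p under 0.05 by edgeR's quasi-likelihood test with Benjamini-Hochberg adjustment over all 3020 tested genes. Among all tested genes 7.12% passed that threshold, 3.74% higher and 3.38% lower, so the share of ligase genes was not above the background. An unadjusted p under 0.05 was found for 9 of the 62 (14.5%), against 19.6% of all tested genes. CPM values of the 2 groups did not overlap for 3 of the 62 (RNF149, KLHL41 and TRIM62), against 12% of all tested genes. The median log2 fold change was 0.07 over the 62 ligase genes, 37 above 0 and 25 below, and -0.0037 over all tested genes.

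**Figure D1:**
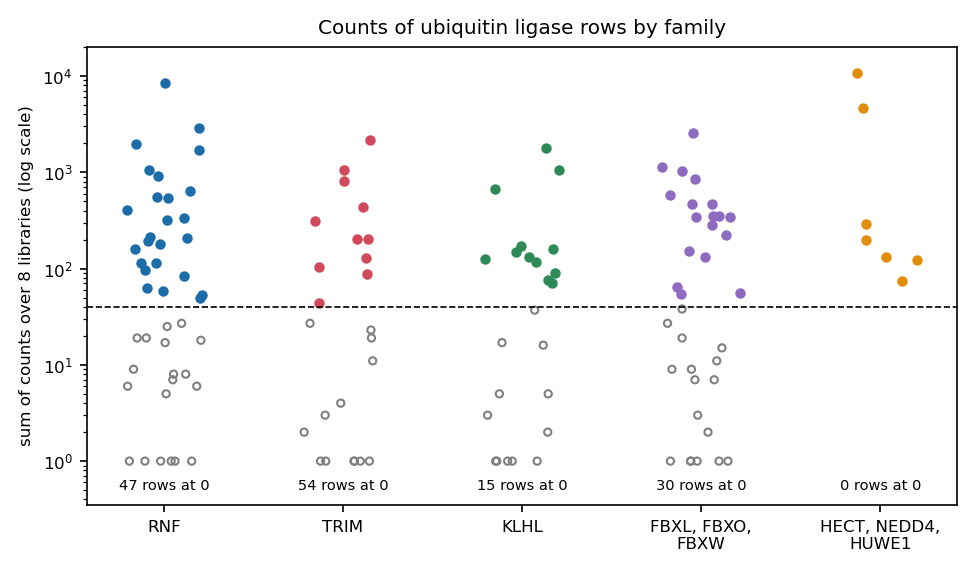
Sum of counts over the 8 libraries (log scale) for each matching row, by family. Filled points are the 73 genes at or above the dashed line at 40 counts, open points are rows below it, and the number of rows at 0 stands under each family; the HECT group alone has no row at 0.

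The promoters of the 3 genes that passed are shown because they are the ones that differed, and because the siRNA target is a homeobox factor, a class that binds sites with a TAAT core. Each run is the RefSeq promoter of GRCm38.p6 from 250 bases before to 50 bases after the start site, read 5′ to 3′ on the gene's strand. Capitals mark 3 motifs searched on both strands: the homeobox core TAAT, the MEF2 box (CTA, any 4 bases, TAG), named for the muscle transcription factor, and the GC box GGGCGG.
RNF149 (chr1:39577298-39577597, minus strand): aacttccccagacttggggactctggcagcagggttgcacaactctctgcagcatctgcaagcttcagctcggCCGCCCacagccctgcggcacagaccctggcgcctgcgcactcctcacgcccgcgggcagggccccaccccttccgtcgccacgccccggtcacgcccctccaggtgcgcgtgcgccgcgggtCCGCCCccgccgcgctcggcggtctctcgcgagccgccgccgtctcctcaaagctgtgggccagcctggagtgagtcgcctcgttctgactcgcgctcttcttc
KLHL41 (chr2:69669870-69670169, plus strand): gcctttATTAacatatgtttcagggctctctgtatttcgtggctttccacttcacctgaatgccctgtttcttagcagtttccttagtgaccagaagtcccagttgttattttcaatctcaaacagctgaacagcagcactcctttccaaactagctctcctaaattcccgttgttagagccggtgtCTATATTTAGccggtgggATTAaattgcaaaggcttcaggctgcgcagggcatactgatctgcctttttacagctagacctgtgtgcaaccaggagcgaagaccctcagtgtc
KLHL21 (chr4:152008641-152008940, plus strand): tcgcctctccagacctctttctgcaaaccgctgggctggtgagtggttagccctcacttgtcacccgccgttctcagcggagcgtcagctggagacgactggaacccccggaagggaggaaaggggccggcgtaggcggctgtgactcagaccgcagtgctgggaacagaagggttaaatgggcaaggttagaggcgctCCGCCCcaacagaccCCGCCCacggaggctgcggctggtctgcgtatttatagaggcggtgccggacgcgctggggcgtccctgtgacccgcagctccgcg
The KLHL41 window held 2 homeobox cores, at positions -244 and -45 from the start site, and 1 MEF2 box at -63. Neither motif was present in the RNF149 and KLHL21 windows, each of which held 2 GC boxes. Of 32851 promoters of this length, 58.0% hold a TAAT core, 3.69% a MEF2 box and 35.7% a GC box, and no match in the 3 windows overlapped one of another motif. The windows also differ in base composition: RNF149 has 33 CpG pairs and 71.3% G or C, KLHL21 26 and 65.3%, and KLHL41 6 and 46.3%, against medians of 7 and 52.7% over all promoters. These matches describe the letters and do not show binding.

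RNF149 is a transmembrane RING ligase with a protease-associated domain. The mouse gene (ENSMUSG00000048234.13) lies on chromosome 1, 39551296 to 39577405, minus strand, in GRCm38. It is overlapped by 2 other annotated genes on the same strand, Gm15832 and the snoRNA Gm23722. How reads shared with them were counted is unstated. Its level was 66.1, 58.7, 47.2 and 53.6 CPM (counts scaled by the TMM-adjusted library size) in siN libraries 1 to 4, and 42.5, 29.1, 19.6 and 23.6 CPM in siHoxa5 libraries 1 to 4. All 4 siHoxa5 libraries lay below the lowest siN library, and siHoxa5 library 1 came closest. The siN mean was 56.4 ± 8.01 and the siHoxa5 mean 28.7 ± 9.97 CPM (SD, n = 4 each, edgeR), for a log2 fold change of -0.97 (SE 0.24; adjusted p = 0.00345). The gene stayed past the threshold whichever single library was left out, with log2 fold changes of -1.23 to -0.81, but without siHoxa5 libraries 2 and 4 together the adjusted p was 0.0542 (-0.86).

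KLHL41, also called sarcosin, stabilizes nebulin and other thin-filament proteins in skeletal muscle, and its loss causes nemaline myopathy. The mouse gene (ENSMUSG00000075307.3) is on chromosome 2, 69670120 to 69684230, plus strand, and no other annotated gene overlaps it. The siN libraries had 27.7, 28.6, 17.3 and 23.0 CPM and the siHoxa5 libraries 60.4, 41.9, 45.7 and 40.01 CPM. Every siHoxa5 library was above every siN library, with siHoxa5 library 1 the highest. The means were 24.1 ± 5.17 and 47.0 ± 9.25 CPM (SD, n = 4 each), which is 0.96 on the log2 scale (SE 0.26; edgeR adjusted p = 0.00959). Only 11 to 37 counts per library stand behind these values. The adjusted p was 0.0631 without siN library 3 and 0.0645 without siHoxa5 library 1, while without siHoxa5 libraries 2 and 4 the log2 fold change was 1.13 and the call stayed. The share of cardiomyocyte markers was higher in siHoxa5 too (5.39 to 5.73% against 6.80 to 7.01% of counts), and its part in the rise of this muscle gene was not tested.

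KLHL21 delivers Aurora B to CUL3 at the spindle midzone during cell division. It lies on chromosome 4, 152008803 to 152017680, plus strand (ENSMUSG00000073700.3), and the unclassified transcript Gm9768 overlaps it on the opposite strand. Its level was 301, 357, 342 and 316 CPM in siN and 328, 474, 429 and 431 CPM in siHoxa5. Here siHoxa5 library 1 fell among the siN libraries, and the other siHoxa5 libraries lay above them. The means were 329 ± 25.1 and 415 ± 61.7 CPM (SD, n = 4 each), or 0.33 as log2 fold change (SE 0.09; edgeR adjusted p = 0.00971). This call rests on few libraries: the adjusted p was 0.0728 without siN library 1, 0.0993 without siHoxa5 library 2, and 0.283 (log2 fold change 0.21) without siHoxa5 libraries 2 and 4.

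**Figure D2:**
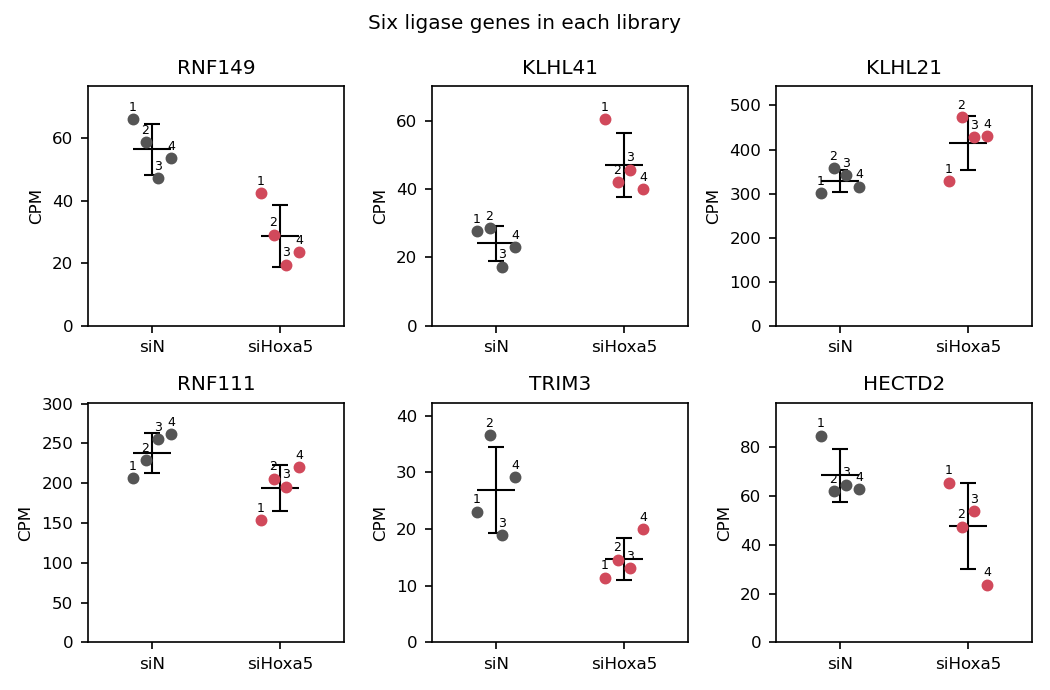
CPM of 6 ligase genes in each library, with library numbers beside the points and bars for mean ± SD (n = 4 per group). RNF149 and KLHL41 show no overlap between groups, KLHL21 overlaps through siHoxa5 library 1, and RNF111, TRIM3 and HECTD2, which did not pass the threshold, overlap between groups.

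The RNF genes were the largest family, with 25 members and 21 tested. RNF149 alone passed (4.76% called, against 7.12% of all tested genes) and 20 did not. The median log2 fold change was 0.01, with 11 values above and 10 below 0. RNF10, a RING ligase that acts on ribosomal proteins, was the most counted: 1729, 1802, 1824 and 1746 CPM in siN and 1796, 1734, 1650 and 1602 CPM in siHoxa5. The groups overlapped, and the fold of siHoxa5 over siN was 0.955 with a 95% interval of 0.887 to 1.03. RNF111, known as Arkadia, removes repressors of SMAD signalling and so strengthens TGF-beta responses. Its libraries had 206, 229, 255 and 262 CPM in siN and 153, 206, 196 and 220 CPM in siHoxa5, which overlapped (log2 fold change -0.30, SE 0.11, edgeR adjusted p = 0.0882). It passed without siHoxa5 library 4 (-0.37, adjusted p = 0.0377) and without siHoxa5 libraries 2 and 4 (-0.44, adjusted p = 0.0231), and had -0.20 (adjusted p = 0.335) without siHoxa5 library 1.

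RNF128, a RING ligase known as GRAIL from T cell anergy, had 32.6 ± 8.10 CPM in siN and 47.4 ± 7.93 CPM in siHoxa5 (SD, n = 4 each; log2 fold change 0.54, SE 0.24, edgeR adjusted p = 0.182). RNF7, the RING subunit of CUL5 complexes, named like RNF11 after the values were seen, had 369 ± 28.5 and 329 ± 16.8 CPM, with a fold interval of 0.786 to 1.01. RNF11, a small RING protein, had a fold interval of 0.986 to 1.247. The intervals of RNF7 and RNF11 both include 1 and lie within 1.5-fold.

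TRIM proteins carry a RING finger, B-box zinc fingers and a coiled coil, and TRIM54, TRIM55 and TRIM63 are the MURF ligases of muscle. Of the 11 TRIM members 10 were tested and 0 passed the edgeR test, against 7.12% of all tested genes. An unadjusted edgeR p under 0.05 was found for 2 of the 10 (20%, against 19.6% of all tested genes). These were TRIM3 and TRIM62, in opposite directions. limma-voom called 0 of 10 as well, and DESeq2 0 of the 5 to which it gave an adjusted p. TRIM3 had 23.1, 36.5, 18.9 and 29.1 CPM in siN and 11.4, 14.6, 13.0 and 20.01 CPM in siHoxa5. Its lowest siN library lay below its highest siHoxa5 library (log2 fold change -0.87, SE 0.34, adjusted p = 0.117). TRIM62, a ligase linked to epithelial polarity, had 15.4, 20.6, 25.2 and 21.4 CPM against 37.6, 25.5, 32.6 and 32.7 CPM. The groups did not overlap, by a margin of 25.2 against 25.5 CPM (0.64, SE 0.30, adjusted p = 0.210).

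TRIM8, a regulator of cytokine signalling, was the most counted TRIM gene. It had 426, 433, 496 and 484 CPM in siN and 421, 477, 416 and 375 CPM in siHoxa5, a fold of 0.918 (95% interval 0.819 to 1.03). TRIM37, the gene of mulibrey nanism, had 35.2 ± 11.2 and 48.4 ± 9.87 CPM (SD, n = 4 each; log2 fold change 0.46, SE 0.24, edgeR adjusted p = 0.280; without siN library 1, 0.28, adjusted p = 0.622). TRIM54, or MURF3, which binds microtubules and the sarcomere, had 95.4, 96.8, 102 and 90.4 CPM in siN against 98.0, 67.4, 94.6 and 65.5 CPM in siHoxa5. The low values were those of siHoxa5 libraries 2 and 4, and the difference did not pass (-0.23, SE 0.17, adjusted p = 0.491; -0.15 without library 2 and -0.14 without library 4).

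In the KLHL family, 9 of the 10 tested (of 12 members) had a log2 fold change above 0, with a median of 0.14, against 1492 of 3020 above 0 and a median of -0.0037 over all tested genes. Of the 10, KLHL41 and KLHL21 rose, 0 fell and 8 did not pass (20% called, against 7.12% of all tested genes). DESeq2 gave an adjusted p to 3 of the 10 and called KLHL21 alone. KLHL23 had 21.4 ± 8.75 CPM in siN and 33.5 ± 8.03 CPM in siHoxa5 (SD, n = 4 each; 0.64, SE 0.30, edgeR adjusted p = 0.202), and KLHL12, named after its value was seen, was the only one of the 10 below 0 (-0.08, SE 0.32). Summed over the 12 members, the level was 818 to 891 CPM in siN and 970 to 1064 CPM in siHoxa5. Without KLHL41 and KLHL21, the sum of the other 10 was 489 to 532 CPM in siN and 548 to 589 CPM in siHoxa5, which did not overlap either. The most counted of these were KLHL9 (means 203 and 228 CPM) and KLHL24 (133 and 140 CPM), and each overlapped between groups. Taken singly, 1 of the 10 tested KLHL genes, KLHL41, did not overlap (10%, against 12% of all tested genes). The sums of the other families overlapped between groups: 4297 to 4477 CPM in siN and 4240 to 4587 CPM in siHoxa5 for RNF, 1097 to 1184 and 1002 to 1180 for TRIM, 1824 to 1946 and 1832 to 2113 for F-box genes, and 3072 to 3391 and 3249 to 3536 for the HECT group. These sums are a description and were not tested. KLHL9 and KLHL13 are close paralogs, and the treatment of reads they share is unstated.

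Of 18 F-box members 15 were tested, with 0 past the edgeR threshold or at an unadjusted p under 0.05. Over all tested genes these shares were 7.12% and 19.6%. limma-voom called 0 of 15 too, and DESeq2 0 of the 13 to which it gave an adjusted p. The median log2 fold change was -0.02 and the values ran from -0.27 to 0.33. All 15 intervals lay within 2-fold, and 10 within 1.5-fold, against 2707 and 1781 of the 3020 tested genes. FBXW2 was the most counted, with 501, 502, 521 and 487 CPM in siN and 490, 556, 504 and 620 CPM in siHoxa5, which overlapped (fold 1.08, 95% interval 0.968 to 1.20). FBXW7, which marks MYC, JUN, NOTCH and cyclin E for destruction, had 84.5 ± 20.4 and 106 ± 9.77 CPM (SD, n = 4 each; log2 fold change 0.33, SE 0.16, adjusted p = 0.255; without siN library 4, 0.21, adjusted p = 0.577). FBXW11, a beta-TrCP protein that recognizes IκB and beta-catenin, had a fold of 0.892 (0.765 to 1.04), and FBXO11, a BCL6 ligase subunit, one of 1.13 (0.957 to 1.34).

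HECT ligases and their kin held the deepest measurement. HUWE1, a giant ligase with MCL1 and MYC among its substrates, lies on the X chromosome and had the most counts of all members (10846). Its level was 2004, 2299, 2160 and 2148 CPM in siN and 2186, 2339, 2237 and 2412 CPM in siHoxa5. The groups overlapped, and the fold was 1.07 (95% interval 0.992 to 1.14, edgeR adjusted p = 0.333), or 0.09 as log2 fold change. Over all tested genes log2 fold change rose with transcript length (Spearman correlation 0.219). With the length and GC trend removed HUWE1 had -0.02 (edgeR adjusted p = 0.910), so the sign of its difference is not settled. The 73 genes held 57331 counts in all.

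HECTD2 was the HECT gene with the smallest p. Its siN libraries had 84.6, 61.9, 64.5 and 62.8 CPM and its siHoxa5 libraries 65.3, 47.4, 53.8 and 23.6 CPM. The groups overlapped through siHoxa5 library 1, and siHoxa5 library 4 was the lowest (log2 fold change -0.51, SE 0.21, edgeR adjusted p = 0.134). Without siHoxa5 library 1 it passed (-0.70, adjusted p = 0.0329), and without siHoxa5 library 4 it had -0.30 (adjusted p = 0.484). An antisense transcript, Hectd2os, overlaps the gene, and their reads cannot be told apart with a kit that does not mark strand. NEDD4L, which restrains the epithelial sodium channel, had 22.9 ± 6.80 and 31.5 ± 11.4 CPM (SD, n = 4 each; 0.46, SE 0.30, adjusted p = 0.411). Of the 6 tested HECT, NEDD4L and HUWE1 genes 0 passed edgeR or limma-voom, nor did any of the 3 with a DESeq2 adjusted p. By edgeR 7.12% of all tested genes passed. Of the 6, 1, HECTD2, had an unadjusted edgeR p under 0.05 (16.7%, against 19.6% of all tested genes).

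**Figure D3:**
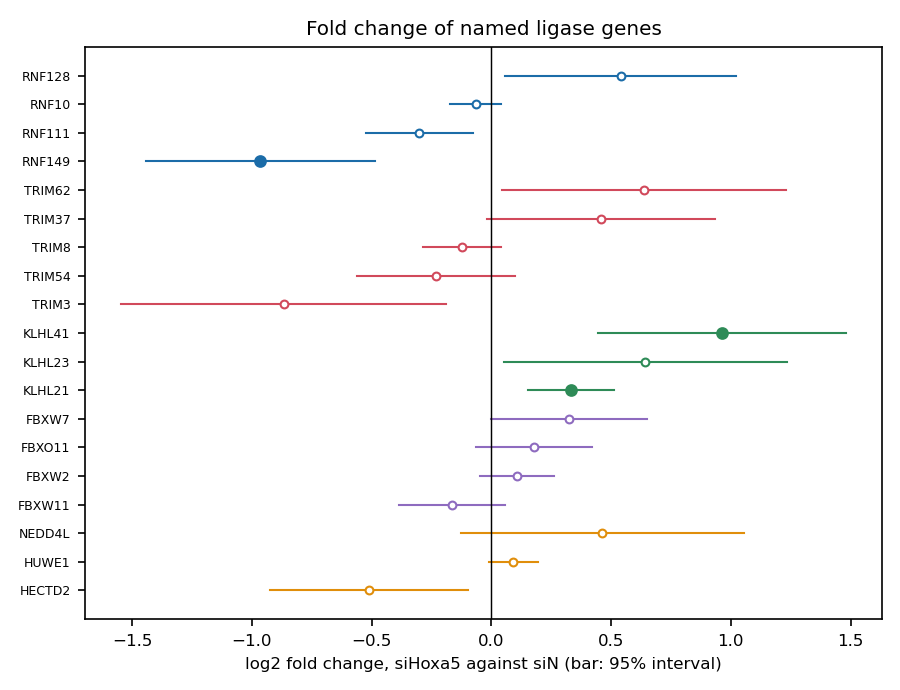
Log2 fold change of siHoxa5 against siN with its 95% interval for the tested ligase genes chosen by the naming rule (past the threshold, most counted or smallest p in a family, or on the muscle list), grouped and coloured by family. Filled points are the 3 past the threshold, RNF149 on the left and KLHL41 and KLHL21 on the right.

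A list of ligases known from muscle, 21 genes of these families, was thinly covered. Among the 73 were 7 of them (TRIM54, FBXW7, KLHL41, KLHL31, NEDD4, NEDD4L and HUWE1), and 5 were tested, of which KLHL41 rose. That is 1 of 5 (20%) by edgeR, against 7.12% of all tested genes. The list was chosen with earlier results of these data known, so this share is only a description. DESeq2 gave an adjusted p to 3 of the 5 and called 0. In all, 10 of the 21 had 0 counts in all 8 libraries: TRIM63 (MURF1), TRIM55 (MURF2), TRIM72, FBXL22, KLHL40, KLHL33, KLHL38, KLHL30, KLHL34 and RNF207. A sum of 0 allows up to 1.16 CPM over the siN libraries and 1.27 over the siHoxa5 libraries, for counting error only. FBXO32 (atrogin-1), the other classical atrophy ligase, had 3, 4, 3 and 0 counts in siN and 3, 0, 4 and 2 in siHoxa5, too few to compare. How human symbols were assigned to mouse reads is unstated, and the cardiomyocyte markers PLN and MB also stand at 0. A muscle ligase row at 0 is therefore only listed, and the limits above are for counts, not for expression.

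Per length of transcript, the order of levels differs from the order of counts. In CPM per kb of the longest coding GENCODE M21 transcript of the mouse gene (72 of 73 members matched by symbol, RNF113A did not), RNF10 was highest among RNF genes at 499, FBXW2 among F-box genes at 231, HUWE1 among HECT genes at 152, TRIM8 among TRIM genes at 123 and KLHL21 among KLHL genes at 93.4. KLHL41 stood at 14.1 and RNF149 at 17.1 CPM per kb. The annotation behind the counts is unstated, so these levels compare genes only roughly. The 72 genes lie on 19 chromosomes, with no more than 8 on any chromosome.

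Precision followed the counts. Among the 14 genes with at least 1000 counts, log2 fold changes ran only from -0.30 to 0.33, all 14 intervals lay within 1.5-fold, and KLHL21 alone passed. Among the 48 tested genes with fewer counts they ran from -0.97 to 0.96, and RNF149 and KLHL41 passed. Over all 62, 52 intervals lay within 2-fold and 34 within 1.5-fold, against 2707 and 1781 of the 3020 tested genes. The median coefficient of variation of the 14 was 7.13% in siN and 10.4% in siHoxa5, and it was larger in siHoxa5 for 12 of the 14. The median over the 62 of each library's log2 deviation from the siN mean was 0.01 in siHoxa5 library 1, 0.11 in library 2, 0.07 in library 3 and 0.05 in library 4, and 0.01 to 0.02 in the siN libraries. The 11 genes that did not pass the filter had sums of 44 to 76; fitted with every gene of at least 40 counts, none of the 11 passed, with log2 fold changes of -0.38 to 0.61 and SEs of 0.39 to 0.51. Among them KLHL31, a muscle kelch gene, had 0.58 (SE 0.41) and NEDD4, the founding member of its family, -0.08 (SE 0.40).

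**Figure D4:**
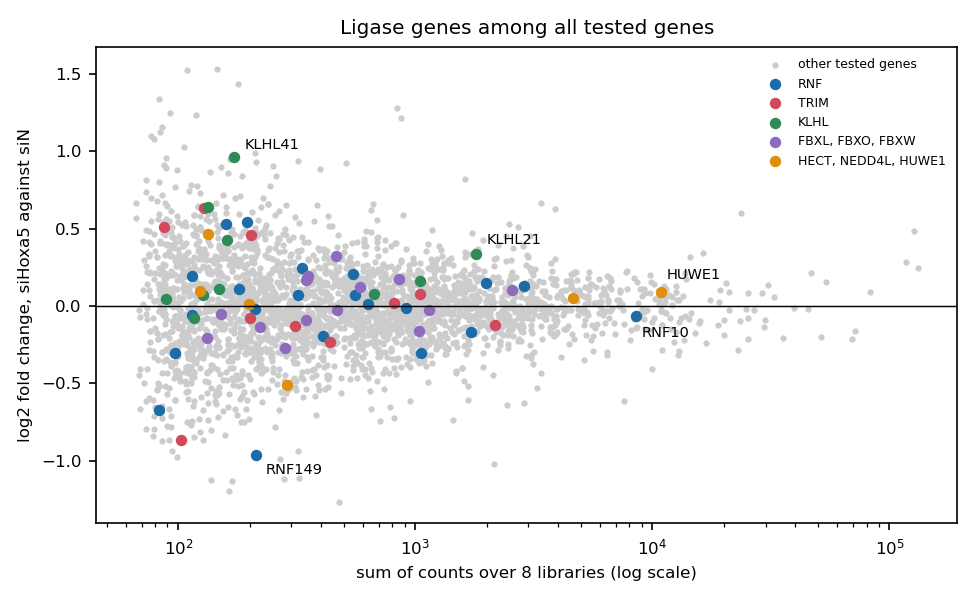
Log2 fold change of siHoxa5 against siN plotted against the sum of counts over 8 libraries (log scale) for the 3020 tested genes, with the 62 ligase genes coloured by family. The ligase genes lie inside the cloud of other genes, HUWE1 and RNF10 close to 0 at the right, and KLHL41 and RNF149 near its upper and lower edges.

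Other genes of the ubiquitin system were taken from 5 lists chosen with earlier results of these data known. Among cullin-RING scaffolds and neddylation genes 22 of 34 were tested, 1 rose, 0 fell and 21 did not pass (4.55% called, against 7.12% of all tested genes; median log2 fold change 0.01). The riser was DCUN1D1, which promotes the attachment of NEDD8 to cullins: 572 ± 18.2 CPM in siN and 681 ± 50.3 CPM in siHoxa5 (SD, n = 4 each; 0.25, SE 0.07, edgeR adjusted p = 0.0173). UBA3, the catalytic subunit of the NEDD8 E1 enzyme, had 0.26 (SE 0.09, adjusted p = 0.0590), and SKP1, which joins F-box proteins to CUL1, -0.25 (SE 0.11, adjusted p = 0.174). UBA3 passed with the replicate block (adjusted p = 0.0456), with the length and GC trend removed (0.0474), with both (0.0364) and without siHoxa5 library 1 (log2 fold change 0.35, adjusted p = 0.00438), but had 0.07 (adjusted p = 0.798) without siHoxa5 libraries 2 and 4. DCUN1D1 was no longer called without siN library 3 or 4 or siHoxa5 library 2, nor without siHoxa5 libraries 2 and 4 (0.18, adjusted p = 0.190), nor with the length and GC trend removed (0.20, adjusted p = 0.0723).

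Of other substrate adaptors of cullins 15 of 44 were tested: IVNS1ABP, a kelch protein of the same build as the KLHL family, rose from 867 ± 36.9 to 1001 ± 58.6 CPM (SD, n = 4 each; log2 fold change 0.21, SE 0.06, edgeR adjusted p = 0.0257), 0 fell and 14 did not pass (6.67% called). It kept its call in 9 of 17 alternatives, and lost it without siN library 2, 3 or 4 or siHoxa5 library 1 or 2. SPOP, a CUL3 adaptor, had -0.42 (SE 0.18) and KBTBD4 0.74 (SE 0.40). Of the E1 and E2 enzymes 21 of 37 were tested: UBE2R2, a CDC34-type E2 that works with cullin-RING ligases, fell from 981 ± 42.3 to 827 ± 69.5 CPM (-0.24, SE 0.06, adjusted p = 0.00708), 0 rose and 20 did not pass (4.76% called). Without siHoxa5 libraries 2 and 4 it had -0.15 (adjusted p = 0.211). UBE2Z had -0.18 (SE 0.07, edgeR adjusted p = 0.0924, and 0.0136 without siHoxa5 library 4) and UBE2A -0.38 (SE 0.16). For UBE2Z the edgeR adjusted p was 0.173 with the length and GC trend removed, and the DESeq2 adjusted p was 0.234.

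Among HECT ligases outside the name rule 11 of 20 were tested, and 0 passed edgeR or limma-voom. Nor did any of the 10 with a DESeq2 adjusted p. By edgeR 7.12% of all tested genes passed. An unadjusted edgeR p under 0.05 was found for 2 of the 11, against 19.6% of all tested genes. These 2 were WWP1 and UBE3A, the Angelman syndrome ligase. WWP1 had 0.38 (SE 0.14, edgeR adjusted p = 0.0691, and 0.0278 without siHoxa5 library 1) and UBE3A 0.21 (SE 0.09). With the length and GC trend removed WWP1 had 0.30 (edgeR adjusted p = 0.1975) and UBE3A 0.10 (0.654). The DESeq2 adjusted p was 0.156 for WWP1 and 0.264 for UBE3A. AREL1 had -0.25 (SE 0.14). Among other RING and U-box ligases 29 of 85 were tested, 0 rose, 1 fell and 28 did not pass (3.45% called). SYVN1, the HRD1 ligase of endoplasmic reticulum-associated degradation, fell from 94.3 ± 11.2 to 64.7 ± 6.13 CPM (SD, n = 4 each; log2 fold change -0.54, SE 0.18, edgeR adjusted p = 0.0383), a call kept in 6 of 17 alternatives and lost on leaving out any 1 library except siN library 1 and siHoxa5 library 4. UBE4A, a U-box ligase, had -0.34 (SE 0.12, adjusted p = 0.0544) and PRPF19, the U-box protein of the spliceosome, -0.41 (SE 0.15, adjusted p = 0.0663). With the replicate block both passed (adjusted p = 0.0384 for UBE4A and 0.0444 for PRPF19), as they did with the block and the length and GC trend removed (0.0189 and 0.0339). UBE4A also passed with that trend alone removed (adjusted p = 0.0331), without siHoxa5 library 4 (0.0143) and without siHoxa5 libraries 2 and 4 (0.0184), and PRPF19 without siHoxa5 library 1 (0.0193); without siHoxa5 libraries 2 and 4 PRPF19 had -0.16 (0.718). The MARCH ligases of that list stand under calendar dates in the files and were not matched.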

How the data were processed

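RNA was measured by poly-T selected TruSeq sequencing in 8 libraries. The authors deposited an estimated count for each gene symbol without scaling, and all but 4 rows hold whole numbers. The submitters' processing notes name mm10, R 3.5.3, HTSeq, STAR 2.6.1b and FastQC 0.11.8 (annotation, strand setting and multi-mapping: not given in the sources used here). All 8 libraries' own files were identical to the series table.

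Counts were rounded and tested with edgeR 4.0.16 (robust quasi-likelihood, R 4.3.3, limma 3.58.1) after TMM scaling and filterByExpr (minimum count 10, minimum total 15), with group as the only term and Benjamini-Hochberg adjustment over 3020 genes at 0.05. Intervals are 95%. Common dispersion corresponded to a biological variation of 6.10%. CPM uses TMM-scaled library sizes. No replicate block was used; same-numbered libraries correlated by -0.02 to 0.07 in their deviations from the group means, so the numbers were not taken as pairs. The steps were tested on simulated counts with the same dispersion for every gene, unlike the data. They recovered 22.9% of 1.25-fold, 70% of 1.5-fold, 84.8% of 2-fold and 100% of 3-fold changes. Of 140 calls 8 were false.

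The members and lists were chosen with earlier results of these data known. The rule for members itself uses the names and the sum of counts, not the groups. Named are HOXA5, members past the threshold, in each family the most counted gene and the 3 with the smallest p, the muscle list, the 3 rows on either side of the limit of 40 counts, and the 3 smallest p in each pathway list. Alternatives were RLE scaling, DESeq2 1.42.0, limma-voom, other filters, the replicate block, a length and GC offset, and libraries left out. Intervals and limits for counts cover counting error only. Single values of some members are not reported here.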

Additional observations from a re-analysis of the deposited data

Results flagged for a closer look

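In groups of 4 libraries, 86 in all for the 43 named genes, the highest or lowest library was compared with the other 3 by Dixon's ratio at its 95% limit. In 5 of the 86 groups 1 library stood apart, and chance gives about 5%. FBXW7 had 91.4 CPM in siHoxa5 library 1, below 110.9 to 111 in the other siHoxa5 libraries. FBXW11 had 192 CPM in siN library 2, below 228 to 235 in the others. HECTD2 had 84.6 CPM in siN library 1, above 61.9 to 64.5. NEDD4L had 14.6 CPM in siHoxa5 library 2, below 35.9 to 38.2, a group in which the other 3 libraries all lay above the siN range of 16.9 to 32.2 CPM. SYVN1, outside the name rule, had 55.5 CPM in siHoxa5 library 1, below 67.3 to 68.5.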

How the results depend on the processing

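Across 17 alternatives the count of ligase genes past the threshold stayed between 2 and 4, and RNF149 passed in 16, KLHL21 in 14 of 17 and KLHL41 in 14 of the 16 that gave it an adjusted p (DESeq2's filter gave none; unadjusted p = 0.00185). Over all tested genes 215 passed, 120 with DESeq2 and 143 without siHoxa5 libraries 2 and 4, where 118 of the 143 were among the 215; with 1 library left out the count was 145 to 260. The median log2 fold change of the 62 ligase genes (0.07) was 0.0407 with the length and GC trend removed (61 genes), 0.0384 with that and the replicate block, and 0.0278 without siHoxa5 libraries 2 and 4; with 1 library left out it was 0.05 to 0.08. In the fit without a filter, the median of all genes was 0.09 and that of the 62 was 0.08. For HOXA5 the difference of siHoxa5 minus siN, 0.761 CPM, ran from -0.272 (without siN library 2) to 1.504 CPM with 1 library left out, and was -0.126 CPM without siHoxa5 library 3. Adding the replicate block gave 250 genes in place of 215 and called the same 3 ligase genes, with UBA3, UBE4A and PRPF19 of the other lists added; 4 of 8 libraries correlated best with their own number. For single named genes, 32 of 581 values lost a call and 17 gained one, with no called gene changing sign; the cause was not tested. At this depth the median SE of a ligase gene's log2 fold change was 0.19, and of those 62 intervals 10 could not bound the difference within 2-fold.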
